A study of Mus musculus with 6 samples.

Results

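MicroRNA precursor loci were examined in nuclear RNA of HL-1 cells. This is an immortal mouse line that descends from an atrial tumour and keeps contracting in culture. The members are the unique gene identifiers that the deposited expression table types as miRNA, 111 of 28660 identifiers without the spike-ins. Of these, 78 carry a Mir symbol and 33 a Gm clone symbol, and 109 of the 111 Ensembl identifiers were also found in the reference list of gene names. Libraries came from 3 chromatin pellet extracts, which hold RNA that stays with chromatin, and from 3 soluble nuclear extracts, described as biological replicates. Both fractions came from nuclei of the same line, released with detergent and fractionated biochemically. The labels name no treatment, and both fractions share a Claycomb growth medium with serum, glutamine and norepinephrine. ERCC spike-in RNAs were added to each fraction before RNA extraction, ribosomal RNA was depleted and directional libraries were made, per the labels' protocols. The authors pooled the 3 libraries of a fraction into 1 FPKM value (fragments scaled to transcript length and library size) for each locus. There is thus no replicate value, no spread between cultures and no p-value. Library depth is also unknown, since no counts were used here.

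MicroRNA genes are transcribed as long primary transcripts, alone, in clusters, or within introns and exons of other genes. The nuclear enzyme Drosha, with its partner Dgcr8, cuts a hairpin out of the primary transcript, often while transcription is under way. The exportin Xpo5 carries that hairpin to the cytoplasm, where Dicer1 releases the mature strand that guides an Argonaute protein to its targets by a short seed. In heart muscle, microRNAs such as miR-1 and miR-133 are known as regulators of growth and conduction. A fragment that maps to a hairpin can come from the primary transcript, the cut hairpin or a longer gene around it, and the table does not separate these sources.

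RefSeq sequences (GRCm38.p6) were matched by symbol to 73 of the 111 loci, with a hairpin for 69 and mature sequences for 71. The 4 let-7 members are shown first because they form the one seed family with more than one locus among the matched members. Their 5-prime mature strands follow 5′ to 3′, with the seed (bases 2 to 8) in capitals. They lie at chr13:48538239-48538260 on the minus strand, chr15:85707325-85707346 and chr15:85706616-85706637 on the plus strand, and chr10:122985698-122985719 on the minus strand.
mmu-let-7a-5p: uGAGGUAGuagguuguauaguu
mmu-let-7b-5p: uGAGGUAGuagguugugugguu
mmu-let-7c-5p: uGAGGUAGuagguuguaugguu
mmu-let-7i-5p: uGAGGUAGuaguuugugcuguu
The loci with the largest pellet folds and a sequence in the tables come next, since each has a seed found at no other matched member. They come from Mir1192 on chromosome 19, Mir7063 on chromosome 7, Mir6244 on chromosome 9, Mir701 on chromosome 5, Mir351 on chromosome X, Mir690 on chromosome 16 and Mir1953 on chromosome 2.
mmu-miR-1192: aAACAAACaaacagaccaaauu
mmu-miR-7063-3p: uGCUCUCUgccccucuuaag
mmu-miR-6244: gGGGGCGUggaauuaucgggu
mmu-miR-701-5p: uUAGCCGCugaaauagaugga
mmu-miR-351-5p: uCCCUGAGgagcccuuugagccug
mmu-miR-690: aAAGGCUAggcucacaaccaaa
mmu-miR-1953: uGGGAAAGuucucaggcuucug
Of the loci furthest towards the soluble extract, those with a sequence in the tables carry the strands below, again without a common seed. They come from Mir7653 on chromosome 11, Mir7091 on chromosome X, Mir678 on chromosome 10, Mir675 on chromosome 7 and Mir686 on chromosome 14.
mmu-miR-7653-3p: cCCCUACUguuccaccccgccu
mmu-miR-7091-3p: aGUGGCUUcugucgucucuag
mmu-miR-678: gUCUCGGUgcaaggacuggagg
mmu-miR-675-5p: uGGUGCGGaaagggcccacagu
mmu-miR-686: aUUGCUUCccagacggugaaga

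Most microRNA loci lay towards the chromatin pellet. Each pellet FPKM was multiplied by a spike-in factor of 3.37 and divided by the soluble FPKM, and the log2 of this ratio is the fold on the spike-in scale. A locus was called higher or lower in the pellet at 2-fold or more. Calls were made where the 2 FPKM values averaged 0.5 or more, as they did for 108 of the 111. Of these, 73 were higher in the pellet, 12 were lower and 23 lay within 2-fold. The median log2 fold was 1.92, with an interquartile range of 0.50 to 3.80. Across all 13917 tested loci, 31.9% were higher and 10.5% lower, and their median was 0.41. The share of microRNA loci higher in the pellet, 67.6%, was thus above the background, while the share of lower ones, 11.1%, was near it. At 4-fold, 52 of the 108 were higher against a background of 14.7%, and 7 were lower against 0.898%.

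The direction depends in part on the scaling. Without the spike-in factor, every log2 fold is smaller by 1.75, and 42 members then stood higher and 34 lower around a median of 0.16. The background on that FPKM scale was 9.66% higher and 61.2% lower, with a median of -1.34. The microRNA median therefore lay about as far above that of all tested loci on either scale, as a constant shift requires. The 3 members below 0.5 FPKM were Mir8095, Mir8102 and Mir8094, with log2 folds of 0.69, 0.71 and 1.38 on the spike-in scale.

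**Figure D1:**
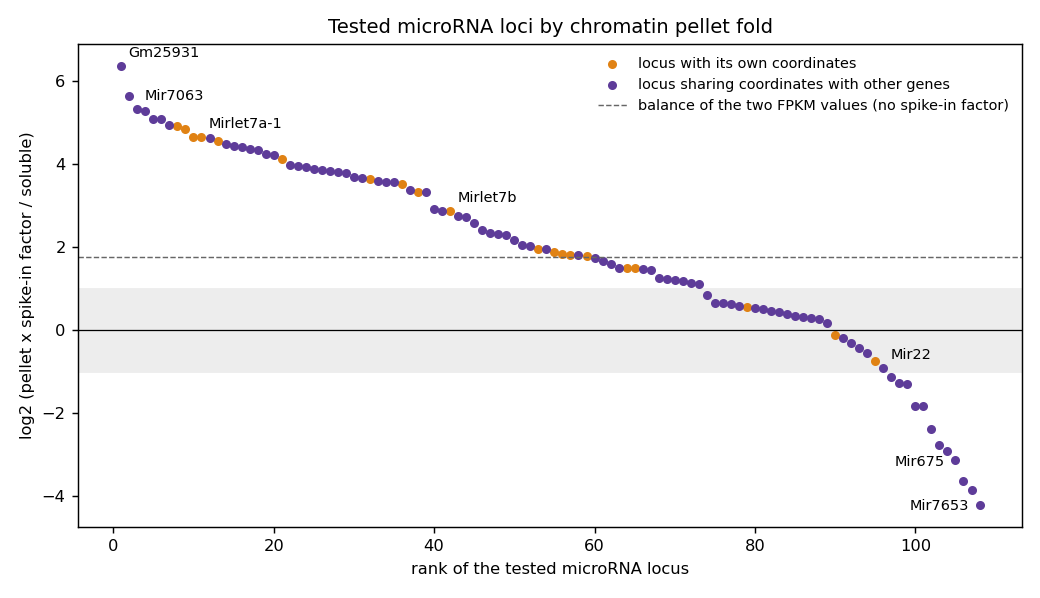
Log2 fold of pellet over soluble on the spike-in scale (y axis) for the 108 tested microRNA loci, ranked from the highest (x axis); each point is 1 locus, the grey band is less than 2-fold and the dashed line marks equal FPKM in both fractions. Folds run from 6.36 to -4.20, and all 12 loci below the grey band share coordinates with other genes.

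The technical error that the table allows is the scatter of the spike-ins. Around the factor, the log2 ratios of the 47 spike-ins that averaged 0.5 FPKM or more scattered with an SD of 0.12, and 0 of them was off by 2-fold. Between 0.05 and 0.5 FPKM the SD was 0.37 over 16 spike-ins. The spike-ins are 273 to 2022 bases long, whereas the matched hairpins are 61 to 139 bases long, so this scatter does not cover loci as short as the members. For such short loci the length correction within FPKM is itself uncertain, in both fractions.

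As a check of the cell line, 11 of 12 atrial cardiomyocyte markers were found, and all 11 reached 0.5 FPKM. They summed to 647.2 FPKM in the pellet and 3143 FPKM in the soluble extract, mostly from Myl7 and Tnnt2. Nppa was low, with 0.208 FPKM in the pellet and 1.63 FPKM in the soluble extract. Sln had 1.27 FPKM in the pellet and 12.5 FPKM in the soluble extract. Both ventricular light chain markers had a mean below 0.5 FPKM. Of 4 skeletal muscle markers listed, 2 were found, and neither reached a mean of 0.5 FPKM. Smooth muscle markers summed to 289.7 and 1922 FPKM in pellet and soluble extract, mostly from Acta2 and Tagln, and fibroblast markers to 88.3 and 346.5 FPKM, mostly from Col3a1. The 4 endothelial markers summed to 2.38 FPKM in the pellet and 6.95 FPKM in the soluble extract, mostly from Kdr, with Cdh5 near 0. The 3 immune markers summed to 0.609 FPKM in the pellet and 0.733 FPKM in the soluble extract, mostly from Cd68, with Ptprc near 0. The neuronal list held Map2, with 14.9 FPKM in the pellet and 22.3 FPKM in the soluble extract, while Rbfox3 was near 0. Whether other cells contribute to the microRNA values was not tested. In bulk libraries, fewer cells of a type and less RNA per cell cannot be told apart.

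Beside the other RNA classes summarised here, the microRNA loci had the widest interquartile range, though not the widest full range. Their share lower in the pellet, 11.1%, compares with 1.60% of small nucleolar RNAs, 1.19% of small nuclear RNAs and 10.6% of protein-coding genes. Median log2 folds were 3.38 for small nucleolar RNAs (288 of 312 higher), 2.47 for small nuclear RNAs (138 of 168 higher) and 0.26 for protein-coding genes (2732 of 11397 higher). Long intergenic noncoding RNAs came close to the microRNA loci in their higher calls, with 67.3% higher and a median of 1.76, but had 2.16% lower. The interquartile range of microRNA loci spanned 0.50 to 3.80, against 2.27 to 4.25 for small nucleolar RNAs, 1.32 to 3.72 for small nuclear RNAs, 0.69 to 3.14 for long intergenic noncoding RNAs and -0.43 to 0.97 for protein-coding genes. These values are descriptions, since a pooled table gives no test of the difference between classes.

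**Figure D2:**
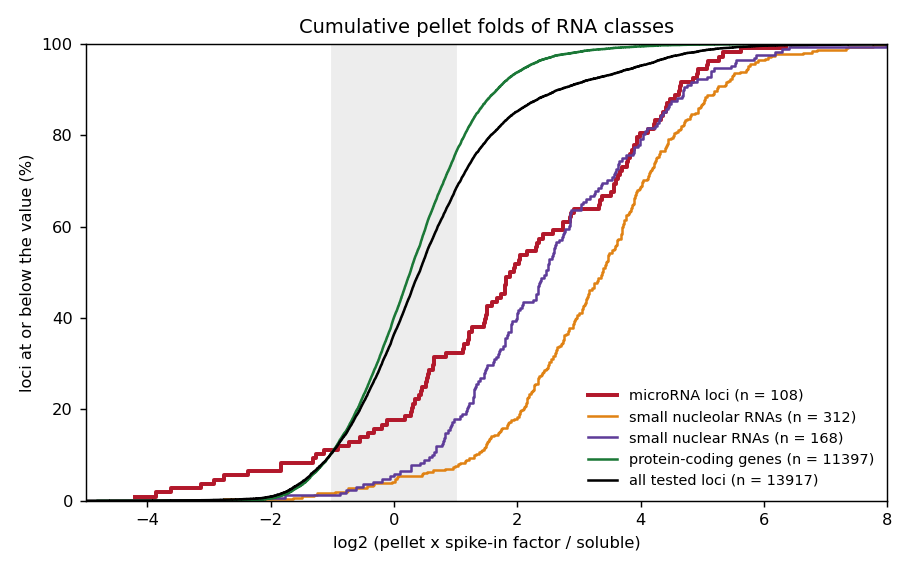
Percentage of loci (y axis) at or below each log2 fold of pellet over soluble on the spike-in scale (x axis) for microRNA loci and other RNA classes, with the 2-fold band in grey. Below -2 the microRNA curve lies above that of all tested loci (7 of 108 loci against 0.898%), while at the middle it runs between protein-coding genes (median 0.26) and small nucleolar RNAs (median 3.38).

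The let-7 family lay in the pellet at each of its 4 measured loci. let-7 microRNAs are known as brakes on proliferation that accumulate as cells differentiate. Mirlet7a-1 had 8.84 FPKM in the pellet and 1.19 FPKM in the soluble extract, a log2 fold of 4.64 on the spike-in scale. Mirlet7i had 8.77 FPKM in the pellet and 2.93 FPKM in the soluble extract, with a log2 fold of 3.34. Mirlet7c-2 and Mirlet7b are neighbours on chromosome 15, with 621 bases between their hairpins. Mirlet7c-2 had 16.8 FPKM in the pellet and 4.95 FPKM in the soluble extract, with a log2 fold of 3.52. Mirlet7b, the most abundant of the family, had 31.0 FPKM in the pellet and 14.4 FPKM in the soluble extract, with a log2 fold of 2.86. The folds of these neighbours differed by less than 1 on the log2 scale, and all 4 loci stayed above 1 on the FPKM scale, from 1.11 to 2.89. None of the 4 shares its coordinates with another gene in the table. Runs of 20 bases of the Mirlet7a-1 hairpin occur in 3 other mouse hairpins and of Mirlet7c-2 in 2, so their fragments could be misassigned within the family, while Mirlet7b and Mirlet7i had 0 such runs.

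The hairpins of the chromosome 15 pair are shown because they share the seeds of both arms. Outside the seeds the arms differ at few bases, while the loops differ more. Capitals mark the mature arms (Mirlet7c-2 at chr15:85706603-85706697 and Mirlet7b at chr15:85707319-85707403, both on the plus strand).
Mirlet7c-2: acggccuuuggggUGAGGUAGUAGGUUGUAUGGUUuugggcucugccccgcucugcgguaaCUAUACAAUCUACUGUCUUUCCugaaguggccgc
Mirlet7b: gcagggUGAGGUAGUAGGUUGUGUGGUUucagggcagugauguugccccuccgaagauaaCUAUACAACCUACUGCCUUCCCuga

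Few of the widely studied microRNAs were among the members. Lists of 77 names were drawn up for muscle microRNAs, the miR-17 to miR-92 cluster and its paralogues, let-7, miR-15 and miR-16, miR-23, miR-27 and miR-24, miR-29 and miR-30, smooth muscle microRNAs and single stress-linked ones. Only 8 of these names are members, and the others were not analysed here. They are the 4 let-7 loci above, Mir1b from the muscle list, Mir143, Mir24-2 and Mir22. Of the 8, 7 were higher in the pellet and 0 lower, of which the let-7 loci make up 4, against a background of 31.9% and 10.5% over all tested loci and 67.6% and 11.1% over the microRNA loci.

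Mir22 was the exception of the 8. miR-22 is known as a regulator of cardiac hypertrophy. The locus had 1.16 FPKM in the pellet and 7.29 FPKM in the soluble extract, with a log2 fold of -0.90 on the spike-in scale, which is within 2-fold, and -2.66 on the FPKM scale. Its host transcript Mir22hg, on the same strand and around the hairpin, had 3.81 FPKM in the pellet and 1.70 FPKM in the soluble extract, with a log2 fold of 2.92. The hairpin and its host thus stood apart, with a difference of -3.82 between their log2 folds, which holds on either scale. The hairpin (chr11:75463716-75463810, plus strand) is shown with both mature arms in capitals.
Mir22: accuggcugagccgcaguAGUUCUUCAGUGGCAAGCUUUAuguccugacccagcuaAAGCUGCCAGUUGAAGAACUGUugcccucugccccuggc

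Mir143, which holds a microRNA known for smooth muscle differentiation, had 95.5 FPKM in the pellet and 13.7 FPKM in the soluble extract. Its log2 fold was 4.55 on the spike-in scale and 2.80 on the FPKM scale (chromosome 18, 61649190 to 61649269). The separate host transcript Mir143hg had 53.5 FPKM in the pellet and 5.54 FPKM in the soluble extract, with a log2 fold of 5.02. Locus and host thus lay on the same side. Mir1b, of the miR-1 muscle family, was low, with 4.55 FPKM in the pellet and 0.994 FPKM in the soluble extract and a log2 fold of 3.95. It shares coordinates on chromosome 18 with the ubiquitin ligase gene Mib1 (log2 fold 0.68) and with Gm21747, an antisense transcript at 5.02. Mir24-2, which yields miR-24, had 1.92 FPKM in the pellet and 0.882 FPKM in the soluble extract, with a log2 fold of 2.88. The noncoding gene Gm26532 at the same place had a log2 fold of 4.25. Mir24-2 shares a run of 20 bases with 3 other mouse hairpins, so its fragments could be misassigned.

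The 10 loci with the largest pellet folds, among loci averaging 1 FPKM or more, ranged from a log2 fold of 4.66 to 6.36. None of them is among the classical muscle microRNAs. Gm25931 on chromosome 4 led, with 32.7 FPKM in the pellet and 1.34 FPKM in the soluble extract, an 82.2-fold difference on the spike-in scale. It shares the coordinates 40804602 to 40854005 with a second member, Gm24112, and with the galactosyltransferase gene B4galt1. Gm24112 had 6.66 FPKM in the pellet and 1.47 FPKM in the soluble extract, with a log2 fold of 3.94. B4galt1 itself had 17.7 FPKM in the pellet and 56.0 FPKM in the soluble extract, a log2 fold of 0.09. So both microRNA loci at these coordinates were higher in the pellet while the gene was balanced, and the loci differed in pellet level more than in soluble level.

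Mir1192, at the Kruppel-like factor gene Klf9, had 25.4 FPKM in the pellet and 1.73 FPKM in the soluble extract (log2 fold 5.63). Mir7063, on the same strand as the clathrin adaptor gene Ap2a2 and inside it, had 32.7 FPKM in the pellet and 2.73 FPKM in the soluble extract (5.34). Ap2a2 had a log2 fold of -0.23, so the difference between locus and host was 5.56. Mir6244, on the strand opposite to Zc3h12c, had 13.7 FPKM in the pellet and 1.20 FPKM in the soluble extract (5.27). Gm24816, at the Arf exchange factor gene Iqsec1, had 2.04 FPKM in the pellet and 0.201 FPKM in the soluble extract (5.09). Gm27299, at 1700001K19Rik on chromosome 12, had 31.4 FPKM in the pellet and 3.13 FPKM in the soluble extract (5.08). Mir701, inside Ttc28 and on its strand, had 10.4 FPKM in the pellet and 1.15 FPKM in the soluble extract (4.93). The hosts among these, other than 1700001K19Rik, had log2 folds between -0.23 and 1.33, all below their microRNA locus. 1700001K19Rik was near 0, with 0.0677 FPKM in the pellet and 0.0413 FPKM in the soluble extract.

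The other 3 of the top 10 have coordinates of their own. Mir351, on chromosome X, had 11.2 FPKM in the pellet and 1.25 FPKM in the soluble extract, with a log2 fold of 4.92. The long noncoding gene C430049B03Rik, whose RefSeq span covers it, had a log2 fold of 2.98. Mir690 on chromosome 16 had 78.6 FPKM in the pellet and 9.20 FPKM in the soluble extract, with a log2 fold of 4.85. It lies inside the RefSeq span of Fgf12, which had a log2 fold of 0.19. Mir1953 on chromosome 2 had 27.7 FPKM in the pellet and 3.70 FPKM in the soluble extract, with a log2 fold of 4.66.

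The loci lower in the pellet were fewer but held the largest levels. Gm23419, at the cytoplasmic actin gene Actg1 (chromosome 11, 120345690 to 120348542), had 200.2 FPKM in the pellet and 5102 FPKM in the soluble extract, a log2 fold of -2.92 on the spike-in scale. Gm22133, at the ferritin light chain gene Ftl1, had 235.0 FPKM in the pellet and 1958 FPKM in the soluble extract, with a log2 fold of -1.30. Gm27506, at the ribosomal protein pseudogene Rpl19-ps4, had 115.4 FPKM in the pellet and 1381 FPKM in the soluble extract, with a log2 fold of -1.83. Rpl19-ps4 itself was low, with 0.126 FPKM in the pellet and 0.784 FPKM in the soluble extract. Each of these 3 microRNA loci was lower in the pellet on either scale.

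Mir686, inside the proteasome gene Psmb5 and on its strand, had 47.4 FPKM in the pellet and 826.8 FPKM in the soluble extract (-2.37). Gm25745, at the chaperone gene Hsp90b1, had 10.3 FPKM in the pellet and 123.2 FPKM in the soluble extract (-1.83). Gm24951, at the transporter gene Slc22a27, had 1.22 FPKM in the pellet and 27.7 FPKM in the soluble extract (-2.75). Slc22a27 itself was near 0, with 0.00386 FPKM in the pellet and 0.00201 FPKM in the soluble extract. Of the 12 lower loci, the 2 not otherwise described were Mir7005 at Lama5 (-1.13) and Mir6400 at Decr1 (-1.26). All 12 share coordinates with other genes.

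Mir675 stood with this group. It is known to be cut from the first exon of H19, an imprinted long noncoding RNA. The locus had 9.82 FPKM in the pellet and 290.0 FPKM in the soluble extract, with a log2 fold of -3.13 on the spike-in scale and -4.88 on the FPKM scale. H19 had 17.9 FPKM in the pellet and 117.6 FPKM in the soluble extract, with a log2 fold of -0.96. The difference between the log2 folds of hairpin and host was -2.17. In the soluble extract its FPKM exceeded that of H19, and in the pellet it did not. The hairpin (chr7:142577064-142577147, minus strand) is shown with its mature arms in capitals.
Mir675: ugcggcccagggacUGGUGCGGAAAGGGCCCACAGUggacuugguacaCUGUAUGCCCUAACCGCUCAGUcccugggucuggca

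The 3 lowest folds belonged to loci with pellet values of 2.09 FPKM or less. Mir7653 on chromosome 11 had 2.09 FPKM in the pellet and 129.6 FPKM in the soluble extract, with a log2 fold of -4.20. It shares coordinates with the ribosomal protein gene Rpl23a (log2 fold -1.80) and with Tlcd1 (0.37), whose RefSeq span contains its hairpin. Mir7091 on chromosome X had 0.359 FPKM in the pellet and 17.4 FPKM in the soluble extract, with a log2 fold of -3.85. Its hairpin lies inside Dnase1l1 on the same strand, and that gene had a log2 fold of 0.49. Mir678, inside the arginine methyltransferase gene Prmt2, had 0.104 FPKM in the pellet and 4.28 FPKM in the soluble extract, with a log2 fold of -3.62. Its rank rests on that small pellet value. With a pseudocount of 0.1 FPKM the fold of Mir678 was -2.67, above those of Mir675 (-3.12) and Gm23419 (-2.92).

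**Figure D3:**
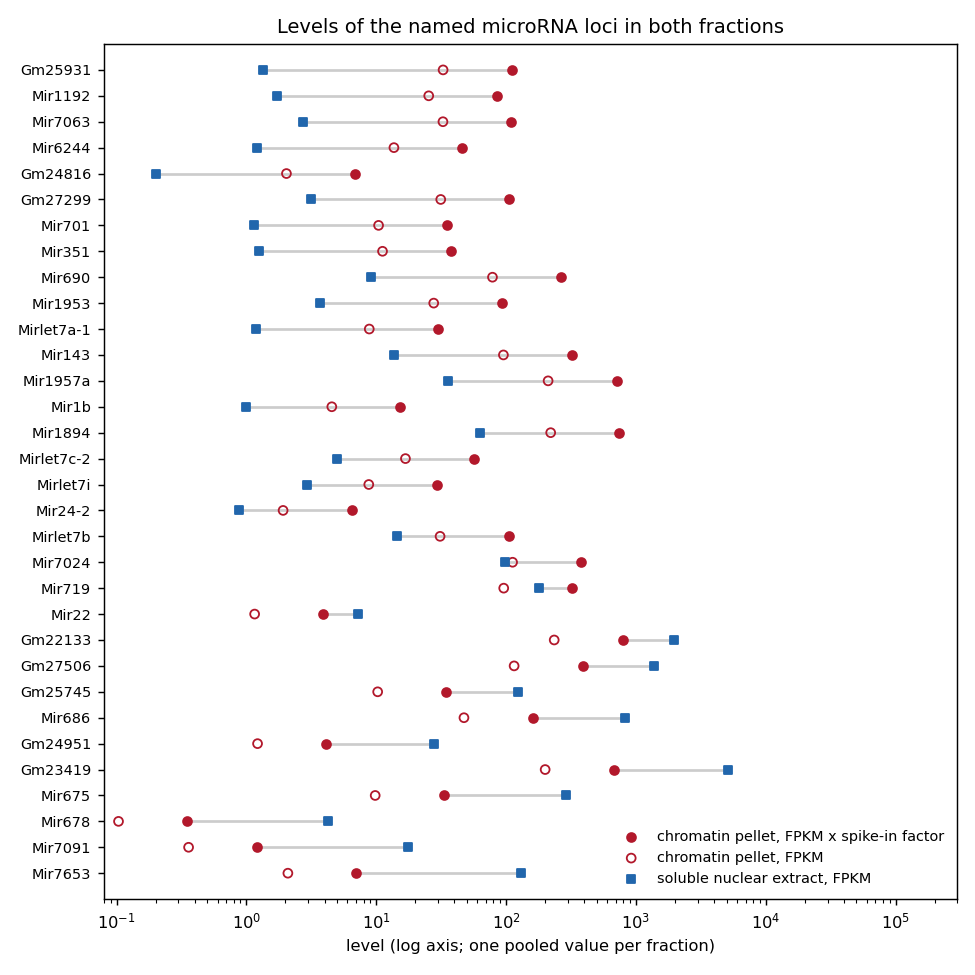
Level of each of the 32 named microRNA loci (y axis, ordered by fold) in FPKM on a log axis (x axis), with 1 pooled value per fraction: filled circles are pellet FPKM times the spike-in factor, open circles pellet FPKM and squares soluble FPKM. In Gm25931 the filled circle is 82.2 times the square, while at the bottom Mir7653 has 2.09 FPKM in the pellet and 129.6 FPKM in the soluble extract.

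The class looked different by sum and by count, as the most abundant loci by mean FPKM were lower in the pellet. All 111 loci together had 2673 FPKM in the pellet, or 9016 with the spike-in factor, and 11208 FPKM in the soluble extract. The log2 ratio of these sums was -0.31 on the spike-in scale, opposite in sign to the median of single loci. Gm23419 alone made up 45.5% of the soluble sum, and the top 5 loci (Gm23419, Gm22133, Gm27506, Mir686 and Mir675) made up 85.3%. Without those 5, the sums were 2065 FPKM in the pellet and 1650 FPKM in the soluble extract, with a log2 ratio of 2.08 on the spike-in scale. These 5 loci were chosen by their soluble level, so the second ratio is a description. The pellet sum was less concentrated, with 36.7% in its top 5 loci.

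The 10 loci with the highest mean FPKM showed the same split. They include Mir1894, at the phosphatase targeting gene Ppp1r10, with 220.8 FPKM in the pellet and 63.0 FPKM in the soluble extract (log2 fold 3.56). Mir1957a, at the glucose transporter gene Slc2a1, had 210.9 FPKM in the pellet and 35.4 FPKM in the soluble extract (4.33). Mir7024, at the methyltransferase gene Whsc1 (log2 fold 0.93), had 112.3 FPKM in the pellet and 98.2 FPKM in the soluble extract (1.95, or 0.19 on the FPKM scale). The Mir7024 hairpin lies outside Whsc1 and inside Nelfa, on its strand, which had a log2 fold of 0.60. Mir719, at the nucleoporin gene Nupl1, had 96.0 FPKM in the pellet and 180.1 FPKM in the soluble extract. Its log2 fold of 0.85 is within 2-fold and becomes -0.91 on the FPKM scale. Among the 9 tested loci that averaged 100 FPKM or more, 3 were higher and 5 lower in the pellet. Among the 43 between 5 and 20 FPKM, 34 were higher and 2 lower. Over all tested loci at any level, 31.9% were higher and 10.5% lower, and shares at these levels are not given here. The mean takes pellet FPKM without the spike-in factor. It therefore ranks loci of the soluble extract higher than a rescaled mean would, which favours lower calls at the top.

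Sharing of coordinates with other genes was frequent. A locus string in the table spans all genes assembled together, and 88 of the 108 tested members (81.5%) share theirs, against 43.5% of all tested loci. The rule that divided fragments among overlapping genes was not given in the sources used here. Among the 20 tested loci with coordinates of their own, 17 were higher and 0 lower in the pellet, and the median log2 fold was 2.41. Of the 88 that share coordinates, 56 were higher and 12 lower, and the median was 1.77. On the FPKM scale, 10 of the 20 were higher and 3 lower, and 32 of the 88 were higher and 31 lower.

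The loci with coordinates of their own are grouped here by their calls on the 2 scales, so the ranges of the groups are separate by definition. The 10 that were higher on both scales had log2 folds of 2.86 (Mirlet7b) to 4.92 (Mir351) on the spike-in scale. Besides the let-7 loci, Mir143, Mir1953, Mir690 and Mir351, they were Mir1969, with 8.18 FPKM in the pellet and 1.59 FPKM in the soluble extract (4.12), and Mir6379, with 2.37 FPKM in the pellet and 0.646 FPKM in the soluble extract (3.63). A further 7 were higher on the spike-in scale but not on the FPKM scale, with log2 folds of -0.25 (Mir1946b) to 0.21 (Mir1932) on the FPKM scale itself. Their FPKM values were close between fractions, as in Mir8091, with 50.9 FPKM in the pellet and 46.4 FPKM in the soluble extract, and Mir1191, with 21.1 FPKM in the pellet and 20.2 FPKM in the soluble extract. Coordinates of their own do not place these loci outside longer genes. RefSeq spans on the same strand contain Mir8091 (1.89, in Lcor at 2.22), Mir1191 (1.82, in BC024978 at 1.47) and Mir1932 (1.97, in Rnf213 at 1.18), all on the spike-in scale. The other 3 tested loci were within 2-fold, and the lowest was Mir6240, with 3.26 FPKM in the pellet and 18.2 FPKM in the soluble extract (-0.73).

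Set against the longest gene at the same coordinates, called the host here, microRNA loci more often lay further into the pellet. For 77 tested loci, the longest RefSeq gene sharing the locus string also reached 0.5 FPKM, and 76 genes served as hosts. The locus exceeded its host by at least 2-fold in 42 pairs, fell short of it by at least 2-fold in 12 and was within 2-fold in 23. The median difference in log2 fold was 1.18, with an interquartile range of -0.47 to 2.75. This difference contains no spike-in factor. Where RefSeq gives both positions, the hairpin lay inside that gene in 36 pairs and outside it in 8. The median difference was 1.85 over the 27 pairs with the hairpin inside the host and on its strand, and 0.62 over the 8 with the hairpin outside. Over all 2354 tested loci that share coordinates with a longer gene, 38.5% were at least 2-fold above it and 24.3% at least 2-fold below, with a median difference of 0.26. Small nucleolar RNAs stood further from their hosts, with 210 of 250 above, 9 below and a median difference of 3.11. With the gene of highest mean FPKM at the coordinates as host, the median difference was 1.69 over 78 pairs. With genes whose RefSeq span contains the hairpin on the same strand, it was 0.78 over 39 pairs. Those 39 cover a partly different set of loci. Loci without a matched hairpin drop out, and some with coordinates of their own enter, such as Mir690 in Fgf12. The value of 0.78 therefore does not isolate the choice of host.

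Most hosts were themselves within 2-fold. Of the 77 pairs, 26 had a host higher in the pellet, 5 a host lower and 46 a host within 2-fold, against a background of 31.9% higher and 10.5% lower. Hosts had a median log2 fold of 0.71, against 0.41 over all tested loci. Across pairs, the folds of locus and host were weakly related, with Pearson's r of 0.23 and Spearman's rho of 0.25. This is a description over 77 pairs that share libraries and overlapping fragments. Among the 49 pairs whose microRNA locus was higher in the pellet, the median host fold was 0.85. Among the 10 whose locus was lower, it was -0.41, and 3 of those hosts were themselves lower in the pellet (Ftl1, Hsp90b1 and Psmb5). In these 10 pairs, the microRNA locus had a higher FPKM than its host in the soluble extract in 7, and in the pellet in 3.

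Of the 5 noncoding hosts, 3 lay further into the pellet than the microRNA locus inside them. Besides Mir22 and Mir675, this held for Mir374b in Ftx, a noncoding RNA known as a positive regulator of Xist. Mir374b had 0.628 FPKM in the pellet and 1.60 FPKM in the soluble extract, and Ftx had 2.44 FPKM in the pellet and 0.604 FPKM in the soluble extract. Mir374b was thus within 2-fold on the spike-in scale, at 0.40, while Ftx had 3.77. In the other 2 pairs, Gm22402 and Gm27598 lay further into the pellet than their hosts, by 3.59 and 1.76 on the log2 scale. Among protein-coding hosts, Mir181a-2 had 1.45 against 4.01 for Nr6a1, a nuclear receptor gene on the opposite strand. On the strand of Mir181a-2, Nr6a1os shares these coordinates and its RefSeq span contains the hairpin. Nr6a1os had a log2 fold of 4.07, so Mir181a-2 differed from it by -2.62. The lowest difference of all 77 was that of Mir7091 to Taz, an acyltransferase gene of cardiolipin remodelling, at -5.54. Taz is the longest gene at these coordinates, but the hairpin lies outside it.

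Calls on opposite sides were few, but only 5 of the 77 hosts were lower in the pellet at all, and 26 were higher. Of the 49 loci higher in the pellet, 1 had a host lower in it. This was Mir5136, with 39.2 FPKM in the pellet and 26.8 FPKM in the soluble extract (log2 fold 2.30), at Lbhd1 (-1.60). Lbhd1 is on the opposite strand. Of the 10 lower loci, 1 had a host higher in the pellet, which was Mir7091 with Taz (1.69). Other loci followed their host closely. Gm23134 and its host Blcap both had a log2 fold of 1.67, and Mir719 had 0.85 beside 0.67 for Nupl1. Pairs in these paragraphs other than those of the named loci were singled out after their values were seen.

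**Figure D4:**
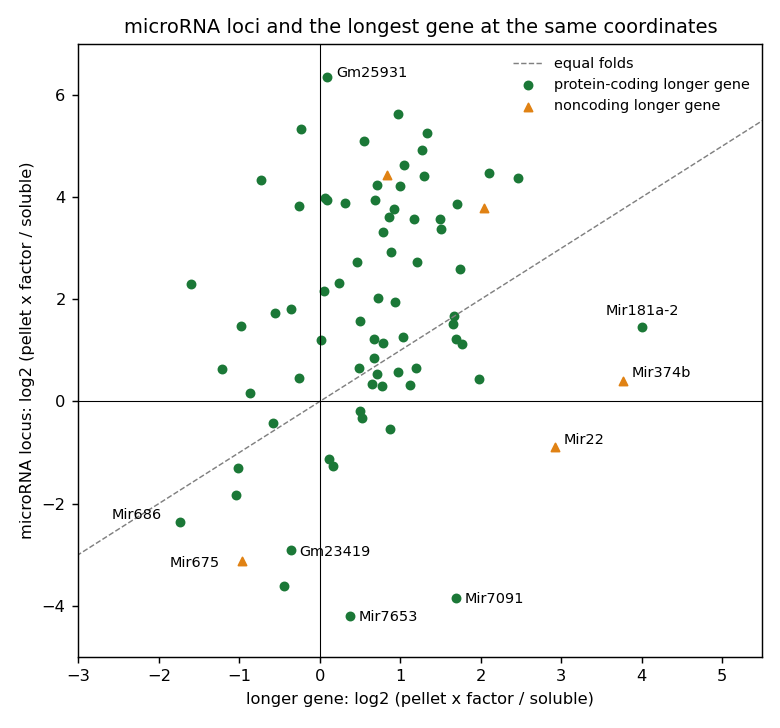
Log2 fold of each microRNA locus (y axis) against that of the longest gene sharing its coordinates (x axis), both on the spike-in scale, for 77 pairs; circles are protein-coding and triangles noncoding longer genes, and the dashed line marks equal folds. Most points lie above the line (42 by at least 2-fold), while Mir22, Mir374b and Mir181a-2 lie below it at the right.

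Hairpin features varied widely and tracked the fold weakly. Over the 66 tested loci with a hairpin, the length had a median of 95 bases, and GC content ranged from 37.4% to 82.9% with a median of 54.9%. The median GC content was 53.7% in the 45 loci higher in the pellet and 58.3% in the 6 lower ones. Spearman's rho with the log2 fold was -0.32 for GC content, 0.14 for length and 0.03 for the predicted folding energy. These are descriptions over loci of the same pooled libraries. Words of 20 bases of a hairpin recurred in another mouse hairpin or in a promoter window elsewhere for 13 of the 66. Their median log2 fold was 1.82, against 1.81 for the 53 without such a match. Of the 13, 10 were higher in the pellet and 0 lower, and of the 53, 35 were higher and 6 lower. Mir8112 recurred most, in 26 of 32815 promoter windows, followed by Mir690 in 5 windows. Values of such loci can include fragments from copies.

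The genes of microRNA processing and action were measured as messages. Of 34 names listed, 32 were found and 31 tested. On the spike-in scale 12 were higher in the pellet and 2 lower, against a background of 31.9% and 10.5%, and the middle log2 fold was 0.74. Without the factor 0 were higher and 16 lower, and the middle value was -1.01.

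In the nuclear cutting step, the message of Dgcr8, the hairpin-binding partner, was higher in the pellet, with 13.2 FPKM in the pellet and 9.93 FPKM in the soluble extract (log2 fold 2.16, or 0.41 on the FPKM scale). That of Drosha was within 2-fold, with 9.47 FPKM in the pellet and 27.4 FPKM in the soluble extract (0.22). For export, the message of Xpo5 was also within 2-fold at 0.36. Ran, the small GTPase that drives export, was lowest of the list, with 58.1 FPKM in the pellet and 509.8 FPKM in the soluble extract (-1.38). The cap-binding gene Ncbp2 was the other lower one at -1.02.

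Among the cytoplasmic effectors, Dicer1 had 6.76 FPKM in the pellet and 10.7 FPKM in the soluble extract (1.09, or -0.67 on the FPKM scale). Ago2, the Argonaute that cleaves targets, was within 2-fold, with 8.41 FPKM in the pellet and 17.9 FPKM in the soluble extract (0.66). Ago3 had the largest fold, with 23.9 FPKM in the pellet and 15.5 FPKM in the soluble extract (2.38, or 0.62 on the FPKM scale). The 1 listed gene below 0.5 FPKM in its mean was Lin28b, which blocks let-7 maturation.

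**Figure D5:**
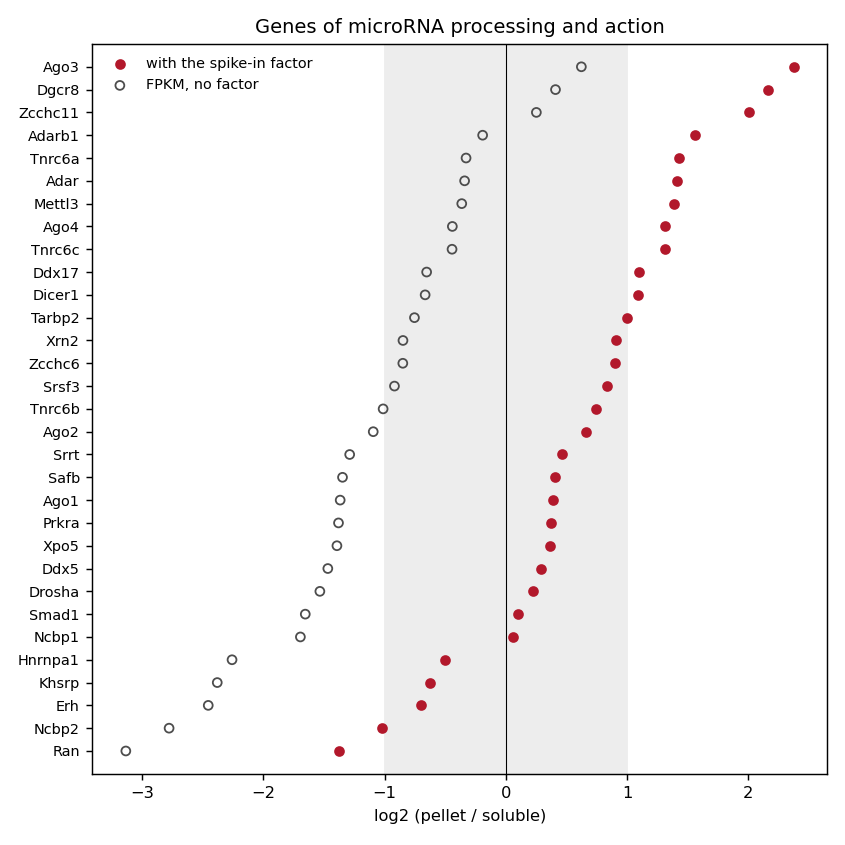
Log2 fold of pellet over soluble (x axis) for 31 tested genes of microRNA processing and action (y axis), with the spike-in factor (filled) and without it (open); the grey band is less than 2-fold. With the factor, 12 genes lie right of the band and Ran and Ncbp2 left of it; without the factor, 0 lie right and 16 left.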

How the data were processed

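The authors deposited 1 table for 6 libraries, with 1 FPKM value per fraction, so the 3 replicates stand pooled. Per the submitters' processing notes, the build was mm10 and the tools HISAT2, SAMtools, Cufflinks, bedtools and Cuffdiff, with versions and settings not given in the sources used here. Per the file headers, the table also holds a rescaled pellet signal, a total signal, the pellet to soluble ratio and the log10 of the last pair. The deposited rescaled signal equals, within 0.389%, pellet FPKM times 3.37, the least-squares slope of soluble on pellet FPKM over 82 spike-ins, which was recomputed here.

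Of 30687 lines, 1945 repeats of an identifier were dropped. Starts count from 0 in the table, and 1 was added. No member was listed at 0, and no pseudocount was added. The limma fit planned for replicate values was not possible, so folds were called at 2-fold where the mean of the fractions reached 0.5 FPKM. RefSeq spans and strands (GRCm38.p6, the build of mm10) gave host lengths, and the longest gene sharing a locus string served as host. Folding energies came from RNAfold 2.7.2, and figures from Python 3.11.15. The loci named are the 10 largest folds each way among loci averaging 1 FPKM or more, the 10 highest means and the members of the listed groups, 32 in all; others are named as chosen for their values. Members and lists were chosen with earlier results of these data known. Alternatives were the scaling, the factor, the filter, a pseudocount, the threshold, the host and the members.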

Additional observations from a re-analysis of the deposited data

How the results depend on the processing

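The spike-in factor mattered most. Without it, 42 microRNA loci were higher in the pellet and 34 lower, the median log2 fold was 0.16, and 0 pathway genes were higher and 16 lower. Among named loci, Mir7024 was then no longer past 2-fold, Mir22 was, and Mir719, within 2-fold on both scales, changed sign to -0.91. Most named loci were picked for large folds, which a shift of 1.75 cannot undo, so their calls say little about stability. At 4-fold, 7 loci and 0 pathway genes were lower and 3 pathway genes higher. With the median spike-in ratio as factor, or a pseudocount of 0.1 FPKM, 1 pathway gene was lower. With Mir symbols only, 7 loci were lower, out of 75. The median difference from the host was 0.97 with no filter on low values. It was 0.78 with same-strand hosts that contain the hairpin, over a partly different set of loci. All other settings run left the counts within 1.5 times and the medians on their side of 2-fold. No paired analysis was possible because the table holds 1 pooled value per fraction, and for the same reason replicates could not be left out. Depth is unknown, so no counting limit can be given.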

Other observations

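Some loci with a microRNA symbol carry another RNA type in the table and are not members. Those typed as small nucleolar RNA all lay towards the pellet on the spike-in scale. Mir1949 had 3547 FPKM in the pellet and 1813 FPKM in the soluble extract, with a log2 fold of 2.72, and its pellet value was above that of every member (Gm22133, 235.0 FPKM, was the highest). Mir677 had 239.1 FPKM in the pellet and 34.9 FPKM in the soluble extract, with a log2 fold of 4.53. Mir3096 had 32.7 FPKM in the pellet and 7.46 FPKM in the soluble extract (3.89). Mir1839 had 8.40 FPKM in the pellet and 12.2 FPKM in the soluble extract (1.22), which becomes -0.54 on the FPKM scale.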
